A study of Mus musculus with 2 samples.

Results

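Among the cells of MC38 tumours, a small group of macrophages was set apart by transcripts of Folr2, the folate receptor beta, and Cbr2, a carbonyl reductase. These Folr2 Cbr2 macrophages numbered 203 of 5245 cells in tumours of vehicle-treated mice and 62 of 6328 cells in tumours of mice given LC427, or 265 of 11573 cells in all. MC38, a mouse colon carcinoma line, had been implanted in female C57BL/6 mice, and tumours were taken on day 14. Dead cells were removed, CD45-positive cells were selected on magnetic beads, and 1 droplet library with 10x 5′ chemistry was made from each condition. LC427 is a compound known here by its code alone, its dose and schedule are not given in the sources used here, and the title of the series names degradation of CTLA4 through LRBA as its subject. How many animals were pooled into each library is not stated, so the values below have no replicate check, and differences are between these libraries.

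Macrophages that carry Folr2 are known from many healthy organs, where they are long-lived, often lie along blood vessels and take up debris and circulating proteins. They are usually described by scavenger and mannose receptors, complement C1q, anti-inflammatory and growth factors and low MHC class II, against the Ccr2-positive cells that have recently come from blood monocytes. In tumours such cells are usually a minority beside macrophages derived from monocytes.

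The cells were chosen by measured transcripts. A barcode was called a cell with at least 1000 UMIs (unique molecular identifiers, each standing for 1 captured RNA molecule), at least 400 genes and at most 10% mitochondrial UMIs, and a gated macrophage when it also had a UMI of Csf1r, C1qa or Lyz2 and none of the T and NK cell genes Cd3e and Ncr1. Of 3891 gated macrophages in vehicle and 4728 in LC427, those in the group had UMIs of at least 2 of the 5 genes Cbr2, Gas6, Folr2, Fcrls and Vcam1, and of more of them than of any of 4 other sets of 5 genes. These other sets were Dpep2, Trem1, F10, Cdh1 and Clec5a, then Ly6i, Fpr2, Plac8, Nos2 and Ly6c2, then Mmp13, Hilpda, Pmp22, Fabp5 and Mt2, and last Pf4, Gatm, Ckb, Cx3cr1 and Itgb5. Values of the 25 genes are therefore given as descriptions, as is every difference between these cells and other macrophages.

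The library totals were 33711726 UMIs in vehicle and 28732435 in LC427, and the median cell had 3560 and 2424.5 UMIs. Folr2 Cbr2 macrophages had a median of 3506 UMIs in vehicle and 2665.5 in LC427, and summed to 900860 and 224284 UMIs, so that levels in LC427 rest on the smaller sum. Of the cells, 49 shared a barcode sequence between the libraries, none of them Folr2 Cbr2 macrophages. The doublet caller Scrublet marked no cell in either library and so did not work here. No cell was removed as a doublet, and when the 220 and 320 cells with the highest scores were left out as an alternative, 2 and 3 Folr2 Cbr2 macrophages went with them. Intervals below are 95% intervals that cover counting error only. They are exact, except those of ratios of shares, which are normal approximations on the log scale.

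The label was checked against markers of macrophages and of other cell types. The gate itself used Csf1r and C1qa, so the macrophage list is in part fixed by it. It also left out barcodes with Cd3e or Ncr1, so low values of T and NK cell markers are in part fixed as well. All 8 macrophage markers were seen in both libraries, at a summed level of 9091 CPM in vehicle and 6193 in LC427 (CPM, the UMIs of a gene per 1000000 UMIs of the group), against 4756 and 3462 in the other gated macrophages and 2172 and 1784 in empty droplets (barcodes of 10 to 100 UMIs, which hold free RNA). Of the defining markers of T cells 6 of 7 were seen in vehicle and 1 of 7 in LC427, at 21.1 and 4.46 CPM, below the 232 and 250 of empty droplets. B cell markers gave 4 UMIs in vehicle and 0 in LC427, and plasmacytoid dendritic cell markers gave 0 in both. NK cell markers gave 18 and 15 UMIs, of which 12 and 14 were in 1 cell. Neutrophil markers were at 24.4 and 35.7 CPM, with S100a9 and Retnlg at 0 in both libraries. Endothelial markers had a UMI in 20 vehicle and 9 LC427 cells, at 24.4 and 40.1 CPM, against 25.1 and 28.1 in the other gated macrophages and 33.9 and 24.5 in empty droplets. Ptprc, the gene of CD45, had a UMI in 46.8% of the vehicle and 48.4% of the LC427 cells, at 180 and 205 CPM, below the 268 and 336 of the other gated macrophages and the 303 and 390 of empty droplets.

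A few barcodes went against the label. In each library 3 had at least 5 UMIs of mast cell, fibroblast or tumour cell markers, a limit set after their counts were seen. In vehicle 1 of them had 59 UMIs of mast cell markers, 1 had 61 of fibroblast markers and 1, of 22875 UMIs, had 43 of tumour cell and 20 of fibroblast markers. In LC427 1 had 76 UMIs of mast cell markers, 1 had 65 of fibroblast markers, and 1 of 28927 UMIs with 13 of tumour cell markers held 12.9% of all UMIs of the LC427 group by itself. Sums over cells are given with and without these 6 barcodes, called barcodes of other lineages below, where they matter. The name is loose, since those with 43 and 13 UMIs of tumour cell markers also had 94 and 92 of macrophage markers. NK cell and dendritic cell markers were not part of the limit, and 1 vehicle cell had 14 UMIs of mature regulatory dendritic cell markers.

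The group was about 4 times smaller in LC427. Folr2 Cbr2 macrophages made up 3.87% of cells in vehicle (interval 3.36% to 4.43%) and 0.980% in LC427 (0.752% to 1.25%), a ratio of 0.253 (0.191 to 0.336). Of gated macrophages they were 5.22% in vehicle and 1.31% in LC427, a ratio of 0.251 (0.190 to 0.333). The smaller number therefore did not go with fewer gated macrophages as a whole. Depth differed between the libraries and a gene is seen more often in a deeper cell, so every cell was also reduced at random to 1000 UMIs before the rule was applied. Then 135 vehicle and 43 LC427 cells passed, and the ratio of their shares of cells was 0.264 (0.188 to 0.371). The plot of shares shows the separation at both depths. The cells behind the thinned counts were in part different ones, since 78 of the 203 and 22 of the 62 passed at both depths.

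**Figure D1:**
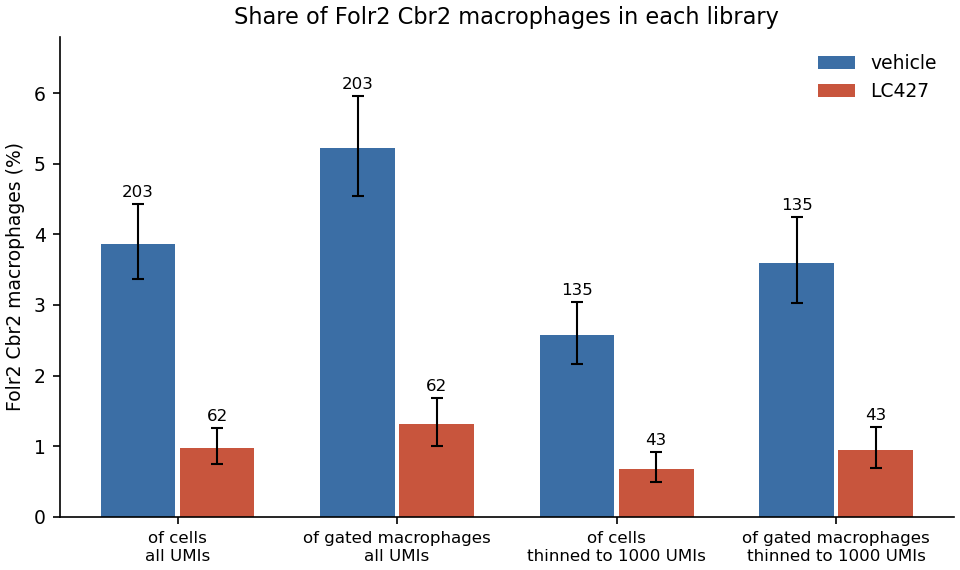
Share of Folr2 Cbr2 macrophages (percent, y axis) among all cells and among gated macrophages, at full depth and with every cell thinned to 1000 UMIs. Bars are single libraries, vehicle in blue and LC427 in red, lines are exact 95% counting intervals, and the number over each bar is the count of cells; LC427 lies between 0.680% and 1.31% and vehicle between 2.57% and 5.22%.

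Membership in this group is a matter of degree. With 2, 3, 4 and all 5 of the genes there were 31, 72, 68 and 32 vehicle cells and 18, 27, 12 and 5 LC427 cells. In 136 of the vehicle and 47 of the LC427 cells the set was ahead of the next by a single gene. A further 258 and 115 gated macrophages had at least 2 of the 5 genes but were level with another set, and 441 and 185 were behind one. The set of Pf4, Gatm, Ckb, Cx3cr1 and Itgb5, which are genes of resident-type macrophages as well, was at least level in 628 of those 699 vehicle and 273 of those 300 LC427 cells. Of the Folr2 Cbr2 macrophages themselves 96.6% in vehicle and all in LC427 had a UMI of that set. If every gated macrophage with at least 2 of the 5 genes is taken, whatever the other sets hold, there were 902 in vehicle and 362 in LC427 and the ratio of shares of cells was 0.333. Fewer such cells and fewer transcripts of the 5 genes per cell cannot be told apart by a rule that counts detected genes.

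Of the 5 genes of the rule, Cbr2 had the highest level in both libraries, followed by Folr2 in vehicle and Vcam1 in LC427. Cbr2 (chromosome 11, 120729489 to 120732114 of GRCm38) was at 551 CPM in vehicle and 410 in LC427, and had a UMI in 82.8% and 77.4% of the cells. Folr2 (chromosome 7, 101839988 to 101857194), which binds folates at the cell surface, was at 500 in vehicle and 250 in LC427 and was seen in 87.7% and 56.5% of the cells. Among barcodes with Cd3e or Ncr1, Folr2 had a UMI in 3.12% and 1.84%, at median depths of 3616 and 2711 UMIs. Lyz2 had a UMI in 37.9% and 45.9% of the same barcodes, so they can also hold macrophage RNA. Gas6 (chromosome 8, 13465374 to 13494490), the bridging ligand of the TAM receptors Axl and Mertk in uptake of dying cells, was at 258 and 232 CPM. Fcrls (chromosome 3, 87250758 to 87263738), an Fc-receptor-like scavenger protein, was at 269 and 245. Vcam1 (chromosome 3, 116109949 to 116129688), an adhesion molecule for integrins, was at 196 in vehicle and 379 in LC427, the only one of the 5 with the higher value in LC427. This held only with the 6 barcodes of other lineages included. Without them the ratio of LC427 over vehicle was 2.37 for Vcam1, 1.13 for Gas6, 1.08 for Fcrls, 0.896 for Cbr2 and 0.588 for Folr2. All 5 lie on these chromosomes' reverse strand.

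The most common pattern in vehicle was Cbr2, Gas6, Folr2 and Fcrls together, in 35 cells, followed by all 5 genes in 32. In LC427 no pattern led: Cbr2, Gas6 and Folr2 were together in 6 cells, Cbr2, Gas6 and Vcam1 in 6, and all 5 genes in 5. Thus Folr2 was missing more often among the LC427 cells than among the vehicle cells, at 27 of 62 against 25 of 203.

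To see each gene in cells it did not itself choose, the rule was repeated with the gene left out. Folr2 was then at 471 CPM in 87 vehicle cells and at 205 in 39 LC427 cells, a ratio of 0.434 (0.268 to 0.674). Vcam1 was at 141 in 154 vehicle cells and at 210 in 37 LC427 cells, a ratio of 1.49 (0.961 to 2.27). For Cbr2 the ratio was 0.666 (0.416 to 1.02), for Gas6 0.668 (0.390 to 1.09) and for Fcrls 0.690 (0.378 to 1.18). The intervals of these last genes and of Vcam1 include 1. In each library all 5 genes were higher in cells chosen by the other 4 than in the remaining gated macrophages, from 3.0-fold for Fcrls in vehicle to 11.3-fold for Cbr2 in LC427. The 5 genes had been put together with earlier results of these data known, so these excesses are a description and no support for the group.

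In the other gated macrophages the same genes were also lower in LC427. Cbr2 was at 67.3 CPM there in vehicle and 22.4 in LC427, Folr2 at 73.1 and 26.7, Gas6 at 29.9 and 15.3, and Fcrls at 58.3 and 29.3. Vcam1 was the exception, at 42.5 and 43.6. Empty droplets moved with them, from 54.2 to 30.9 for Folr2 and from 49.0 to 30.2 for Cbr2. The smaller group in LC427 therefore came with a lower level of 4 of the 5 genes across the other macrophages and in the free RNA.

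In the authors' deposited table of mean counts per cluster, which gives no cell for a cluster, Cbr2, Folr2, Gas6 and Ccl8 were each highest in cluster 1 of both libraries. In the authors' deposited table Fcrls was highest in cluster 13 of vehicle and cluster 1 of LC427, while Vcam1, Maf and Stab1 were highest in cluster 13 of vehicle and cluster 11 of LC427. The authors' deposited table gave Folr2 a mean count of 0.661 in cluster 1 of vehicle and 0.169 in cluster 1 of LC427. The clusters were made separately and their totals, 2884.5 and 1977 counts, differ, so the values are set side by side only.

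Next come the genes outside the rule that set these cells apart from other gated macrophages. Of 2795 genes with at least 50 UMIs over both libraries' Folr2 Cbr2 macrophages, 83 (2.97%) were at least 2-fold higher than in the other gated macrophages in both libraries, and 20 (0.716%) at least 2-fold lower. Among genes of at least 100 CPM in both libraries, Ccl8, a chemokine that attracts monocytes and T cells, had the largest excess when genes were ranked by the smaller of their ratios in the libraries. It was at 9925 CPM in vehicle against 1353 in the other gated macrophages, and at 1315 against 196 in LC427, ratios of 7.33 and 6.71. In empty droplets Ccl8 was at 1699 and 483, above the other gated macrophages in both libraries and below the Folr2 Cbr2 macrophages in both.

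The other leading genes had varied roles. Fcgrt, the neonatal Fc receptor that recycles IgG and albumin, was 5.24 times as high as in other macrophages in vehicle and 6.13 times in LC427. F13a1, the A subunit of coagulation factor XIII and a known gene of resident macrophages, was 3.76 and 6.44 times as high. Stab1, a scavenger receptor, was 3.26 and 5.12 times as high, and Maf, a transcription factor of resident macrophages, 3.45 and 3.38 times. Timp2, an inhibitor of matrix metalloproteinases, was 3.64 and 3.68 times as high, Selenop, a secreted selenium carrier, 4.02 and 3.0 times, and Rnase4, a secreted ribonuclease, 3.27 and 3.76 times. Serpinb6a, Wwp1, Hgsnat and Ch25h completed the 12 leading genes, with ratios between 2.85 and 4.97. Mrc1, the mannose receptor CD206, was 2.78 and 4.46 times as high. The other gated macrophages here still hold the cells that were level with or behind another set, which lowers these ratios. With every cell thinned to equal depth, Stab1 had a UMI in 46.8% of the group and 43.6% of those cells in vehicle. In LC427 the shares were 51.6% and 48.0%, so Stab1 hardly separated the group from those cells. Mrc1 was further apart, at 66.5% and 49.6% in vehicle and 66.1% and 52.3% in LC427. F13a1 and Maf were also seen more often in the group in both libraries.

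The 6 lowest genes against the other macrophages included a chemokine receptor, a cytokine and a protease. Ccr2, the receptor that brings monocytes from blood, was at 24.4 CPM in vehicle and 17.8 in LC427, against 196 and 292 in other macrophages, and below its 111 and 189 in empty droplets. Il1b, the inflammatory cytokine, was at 272 and 161 against 1088 and 966. Mmp12, the macrophage elastase, was at 33.3 and 71.3 against 363 and 288. AA467197, Ass1 of arginine synthesis and the interferon-induced Ifitm1 were the remaining genes of the 6 lowest. Of the 10 measured blood monocyte genes 2 were at least 2-fold lower than in other macrophages in both libraries. The MHC class II gene H2-Ab1, which is not among the 6, was 0.323 times as high as in other macrophages in vehicle and 0.115 times in LC427. After thinning to equal depth, H2-Ab1 had a UMI in 27.1% of the group in vehicle. The share was 33.6% in the cells level with or behind another set and 52.8% in all other gated macrophages. In LC427 these shares were 25.8%, 31.7% and 64.4%. A low share of H2-Ab1 was thus also found in the cells just outside the rule.

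**Figure D2:**
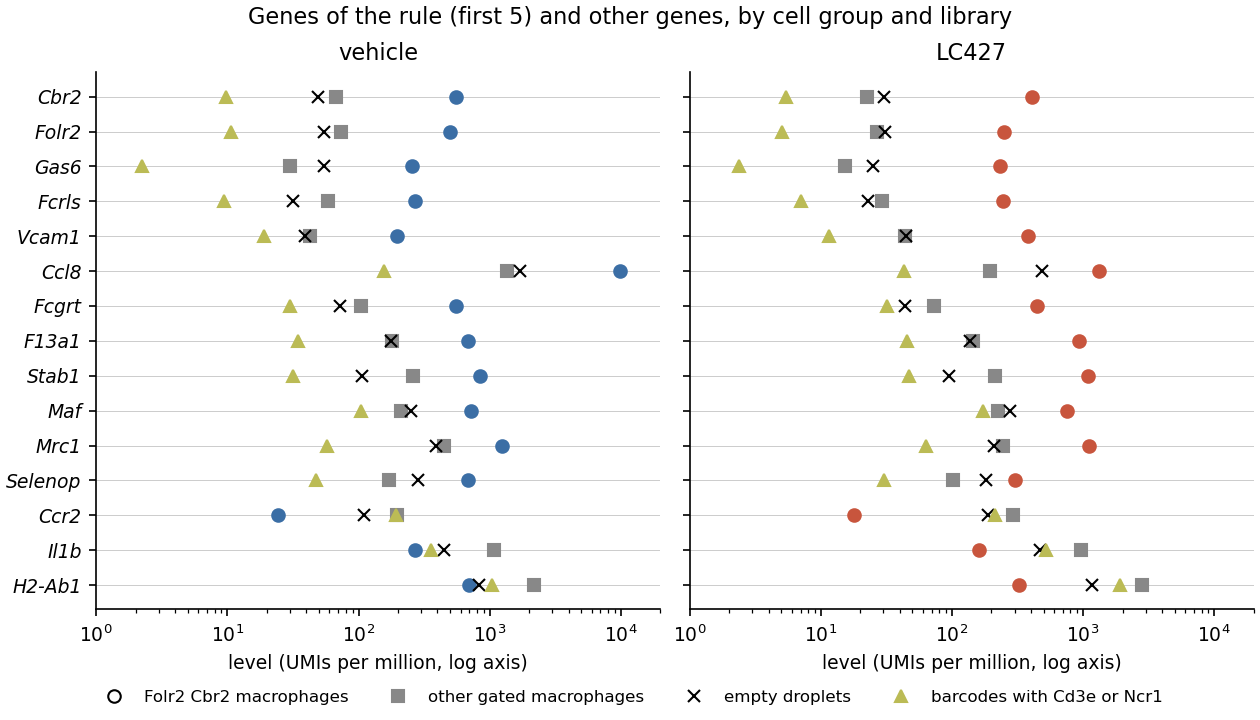
Level (CPM, log axis) of the 5 genes of the rule and of 10 other genes in 4 groups of barcodes, vehicle on the left and LC427 on the right. Each point is a sum over 1 library; from Cbr2 to Selenop the Folr2 Cbr2 macrophages lie to the right of the other groups in both libraries, for Ccr2, Il1b and H2-Ab1 to the left of them, and Ccl8 lies lower in LC427 in every group.

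The sequences just upstream of these genes were searched for sites of macrophage transcription factors, since Maf itself was among the leading genes and the reads of this chemistry begin near transcript starts. RefSeq promoters of GRCm38.p6 were at hand for 13 of the 17 genes (the 5 of the rule and the 12 leading ones), and the 250 bases before each start were read on both strands. The MAF recognition core TGCTGAC was in none of the 13, and in 4.31% of 27025 gene symbols in the table. The PU.1 site GAGGAAGT was in 1 of 13, Selenop, and in 2.79% of all. The TATA box letters TATAAA, added after the sequences were seen, were in 4 of 13 and in 14.3% of all. Those 4 genes were Ccl8, Ch25h, Fcrls and Selenop. The letters were counted at any place in the 250 bases, so a hit need not be a TATA box. No window of these genes held more than 1 of the 3 motifs. Shown are the window of Ccl8 (chr11:82114935-82115184, forward strand), whose level differed most between the libraries among the leading genes, and that of Selenop at its most upstream start (chr15:3270517-3270766, forward strand), with the motifs in capitals. In Selenop the PU.1 site is on the reverse strand.

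Ccl8: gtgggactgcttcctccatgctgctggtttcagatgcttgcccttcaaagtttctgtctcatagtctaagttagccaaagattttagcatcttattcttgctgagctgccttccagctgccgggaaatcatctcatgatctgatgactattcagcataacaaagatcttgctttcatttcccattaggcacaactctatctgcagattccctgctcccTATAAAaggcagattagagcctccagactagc

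Selenop: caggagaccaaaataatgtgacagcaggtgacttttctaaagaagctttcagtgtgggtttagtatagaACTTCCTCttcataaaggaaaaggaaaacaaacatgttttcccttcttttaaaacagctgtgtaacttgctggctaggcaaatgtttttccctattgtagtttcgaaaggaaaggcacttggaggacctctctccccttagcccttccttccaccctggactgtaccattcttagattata

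Between LC427 and vehicle, the Folr2 Cbr2 macrophages had 311 of 2795 genes (11.1%) at least 1.5-fold higher and 380 (13.6%) at least 1.5-fold lower, with a median log2 ratio of 0.01 over all. Genes with few UMIs pass such a fold by counting error alone, so named genes were ranked by the end of their interval nearest to no change. The named lower genes included chemokines, receptors and enzymes of resident and alternatively activated macrophages. Of the 311 higher genes 13 had at least 50% of their LC427 UMIs in 1 cell, and 9 of the 12 named ones were among them. Without the 6 barcodes of other lineages 236 of the 311 and 274 of the 380 were still past the fold. These counts include genes with no UMI left in a library, where a count of 3 was set. Tpsb2 and Cma1, with all their UMIs in those barcodes, stood at 4.94 in this way. Mcpt4, with no UMI left in LC427, stood at 14.8. The 236 are therefore not all genes that stayed higher.

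Retnla, described further on, ranked before Ccl8 among the lower genes, and Ccl8 had by far the most UMIs of them. Its 8941 UMIs in vehicle and 295 in LC427 gave 9925 and 1315 CPM, a ratio of 0.133 (0.118 to 0.149). It was seen in 87.2% of the vehicle and 56.5% of the LC427 cells, and the median cell had 35.7 of 10000 UMIs in vehicle and 4.54 in LC427, although 3 cells held 25.3% of the vehicle and 53.9% of the LC427 UMIs. As the mean of each cell's share the ratio was 0.210. In the other gated macrophages the ratio was 0.145, in those led by the set of Pf4 and Cx3cr1 0.220, in barcodes with Cd3e or Ncr1 0.274, and in empty droplets the level was 1699 and 483. Ccl8 was thus lower in LC427 in all of these groups.

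Ccl24, an eotaxin made by alternatively activated macrophages, had 146 UMIs in vehicle and 2 in LC427, at 162 and 8.92 CPM, a ratio of 0.0550 (0.00660 to 0.202), against 0.0961 in the other macrophages. Hbegf, an EGF receptor ligand, had 60 and 2 UMIs, a ratio of 0.134 (0.0159 to 0.505), against 0.265 in the others. Arg1, arginase 1, was at 2532 and 1164 CPM, a ratio of 0.460 (0.403 to 0.523), against 0.584. Selenop was at 687 and 303, a ratio of 0.441 (0.338 to 0.567), against 0.592. Gapdh, which has many near-identical copies in the mouse genome, was at 1656 and 785, a ratio of 0.474 against 0.470. Ifitm2, an interferon-induced membrane protein, was at 556 and 245, a ratio of 0.441 against 0.532. For these genes the other macrophages had the lower value in LC427 as well.

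Other lower genes had smaller differences in the other macrophages. Mgl2, a C-type lectin, was at 169 and 31.2 CPM, a ratio of 0.185 (0.0731 to 0.390) against 0.631. Tgm2, transglutaminase 2, was at 264 and 98.1, a ratio of 0.371 (0.228 to 0.575) against 0.921. Cd163, the haemoglobin scavenger receptor, had 76 UMIs in vehicle and 3 in LC427, in 22 and 3 cells, a ratio of 0.159 (0.0320 to 0.481) against 0.520, where the other macrophages had only 2.29 and 1.19 CPM. Srgn, the core protein of secretory granules, was at 1248 and 531, a ratio of 0.425 (0.349 to 0.514) against 0.680. All 12 named lower genes were still past the fold without the 6 barcodes of other lineages. Whether the ratios differ between the groups was not tested, since there is 1 library of each.

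Retnla, a secreted product of alternatively activated and resident macrophages, shows how uneven such sums can be. It was at 1454 CPM in vehicle and 152 in LC427. In vehicle 75.0% of its 1310 UMIs came from 3 of the 29 cells that had any, and in LC427 all 34 came from 1 cell. The ratio of 0.104 (0.0719 to 0.146) therefore compares a handful of Retnla-rich cells, and the mean of each cell's own share gave 0.242. Lyve1, a hyaluronan receptor of perivascular macrophages, was likewise in few cells, with 49 UMIs in 16 vehicle cells and 4 in 3 LC427 cells. Timd4, a marker of long-lived resident macrophages, had no UMI in either group.

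**Figure D3:**
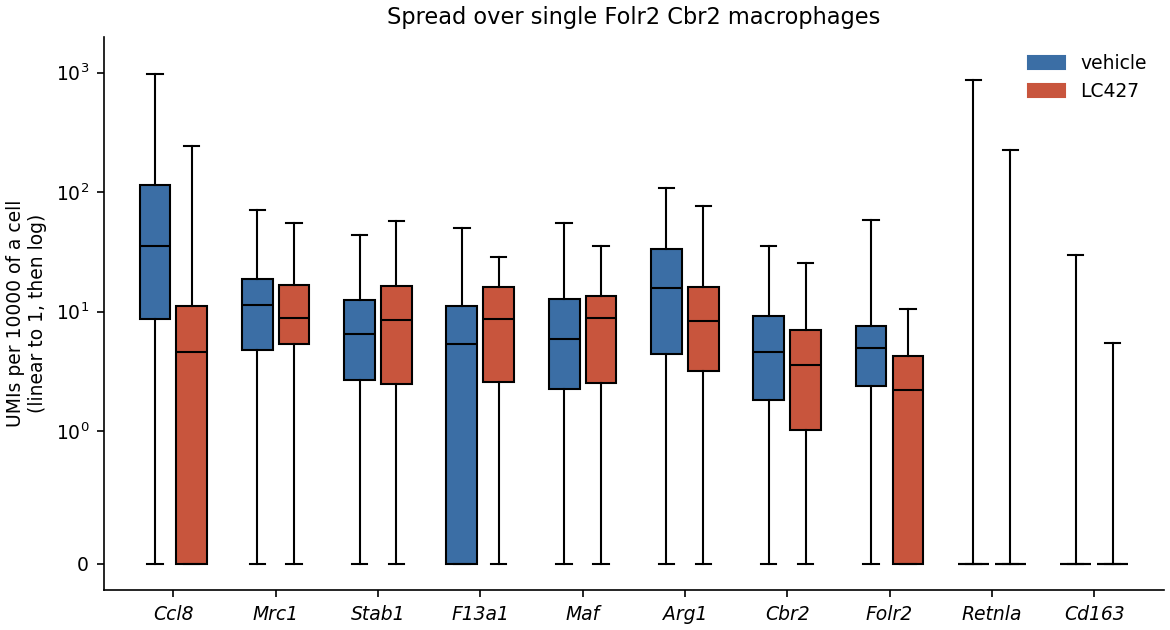
UMIs per 10000 UMIs of each cell (y axis, linear to 1 and logarithmic above) for 10 genes over 203 vehicle (blue) and 62 LC427 (red) Folr2 Cbr2 macrophages. Boxes span the quartiles with the median as a line, and whiskers reach the lowest and highest cell; Ccl8 has medians of 35.7 and 4.54, while Retnla and Cd163 have medians and quartiles of 0 and only single high cells.

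Several of the identity genes did not share this pattern. Stab1 was at 844 CPM in vehicle and 1088 in LC427, a ratio of 1.29 (1.11 to 1.49), and F13a1 at 683 and 936, a ratio of 1.37 (1.17 to 1.61). Maf was at 723 and 754 and Mrc1 at 1238 and 1101, a ratio of 0.890 (0.772 to 1.02). Without the 6 barcodes of other lineages the ratios of Stab1, F13a1, Maf and Mrc1 were 1.48, 1.62, 1.28 and 1.08. In the other gated macrophages Stab1, F13a1 and Mrc1 had ratios of 0.822, 0.801 and 0.555. The cells that passed the rule in LC427 thus had levels of these receptors and of F13a1 near or above those in vehicle, whereas Ccl8, Folr2 and Selenop were lower.

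The higher genes named by this ranking were mostly those of single cells. Tpsb2, Mcpt4 and Cma1, which are mast cell proteases, had all their LC427 UMIs in 1 cell, and Tpsb2 had 132 there. Hspa1b and Hspa1a, near-identical heat shock genes whose reads can be split between them, had 97.2% and 93.5% in 1 cell. The matrix genes Col3a1 and Sparc had 98.1% and 66.7%, and Hspd1 and Nupr1 63.8% and 54.1%. With the UMIs of the gene's own highest cell taken away in each library, totals unchanged, the ratio of Hspd1 was 1.07 and that of Nupr1 1.80. Without the 6 barcodes of other lineages the ratio of Sparc was 1.35 and that of Nupr1 1.30.

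Plec, Fkbp5 and Ifi207 were less concentrated. Plec, which encodes the cytoskeletal linker plectin, had 48.8% of its LC427 UMIs in 1 cell but was seen in 51.6% of the cells, at 204 and 566 CPM, and its ratio was 2.77 with and 1.49 without the 6 barcodes. Fkbp5, an immunophilin gene that glucocorticoids are known to induce, had 17 UMIs in vehicle and 50 in LC427, at 18.9 and 223 CPM, a ratio of 11.8 (6.70 to 21.8). It was seen in 7.88% of the vehicle and 53.2% of the LC427 cells, with no more than 8.0% of its LC427 UMIs in 1 cell. The other gated macrophages had it at 25.5 and 121, barcodes with Cd3e or Ncr1 at 41.6 and 91.2, and empty droplets at 34.7 and 152, so all of these groups had the higher value in LC427. Ifi207, an interferon-inducible gene of the Ifi200 family, was at 121 and 330, a ratio of 2.73 (2.00 to 3.70), and had a ratio of 3.03 in the other gated macrophages.

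**Figure D4:**
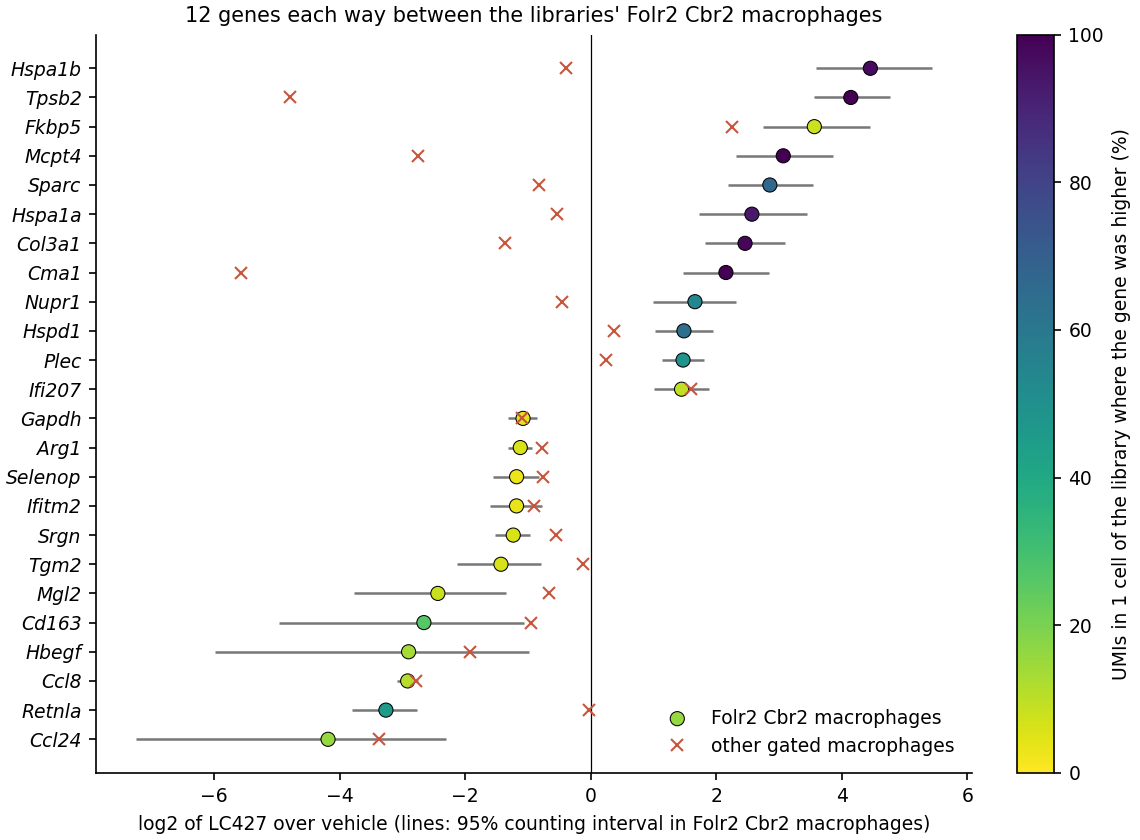
Log2 of the LC427 over the vehicle level (x axis) for the 12 higher and 12 lower named genes in Folr2 Cbr2 macrophages (circles, with 95% counting intervals) and in the other gated macrophages (crosses, with a count of 0 set to 3). The colour gives the percentage of the gene's UMIs in 1 cell of the library where it was higher; 9 of the 12 higher genes have at least 50% in 1 cell and none of the 12 lower genes does.

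Gene lists were described by the members measured in these cells and set against 11.1% higher and 13.6% lower over all genes. Of 16 measured resident and perivascular macrophage genes 8 were at least 1.5-fold lower in LC427 and none higher, with a median log2 ratio of -0.83, against -0.30 in the other macrophages. Clec10a, the lectin CD301, was at 133 and 40.1 CPM, Igf1, a growth factor, at 83.3 and 22.3, and the complement gene C4b at 95.5 and 31.2. This list was written with earlier results of these data known. Over the 165 vehicle and 52 LC427 cells without any UMI of a T, NK, B cell, neutrophil or tumour cell marker, its median was -0.11.

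Of 14 chemokine genes 5 were lower and none higher, with a median of -0.47, against -0.59 in the other macrophages. Ccl7, a further ligand of Ccr2, was at 1388 and 954 CPM and Ccl2 at 1068 and 945. Ccl12 was at 1522 and 1766, a ratio of 1.16 (1.03 to 1.30), against 0.664 in the other macrophages. Ccl5 had 170 UMIs in vehicle and 5 in LC427. When the rule was applied after thinning, the median of the list was -0.02.

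Complement and Fc receptors belong to the uptake of coated particles. C1qa, C1qb and C1qc, the chains of the recognition molecule of the classical pathway, were at 2641, 2812 and 2309 CPM in vehicle and at 2024, 1783 and 1489 in LC427, each higher than in the other macrophages of the same library. Without the 6 barcodes of other lineages the ratios of these 3 genes went from 0.767, 0.634 and 0.645 to 0.857, 0.738 and 0.725. Of 9 complement genes 4 were lower and none higher, with a median of -0.38, as in the other macrophages, where it was also -0.38. Of 6 Fc receptor genes 2 were lower and none higher, with a median of -0.50. Fcer1g, the shared signalling chain, was at 2812 and 1507 and Fcgr4 at 118 and 44.6. Among 14 uptake and scavenger receptors 1 was lower and 2 were higher, with a median of -0.15. The higher ones were Msr1, scavenger receptor A, at 235 and 357, and Mertk, a receptor for Gas6, at 52.2 and 93.6.

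MHC class II genes, which present antigen to CD4 T cells, had a median of -1.10 in Folr2 Cbr2 macrophages and 0.29 in the other gated macrophages. Of 6 measured genes 4 were lower and none higher. Cd74, the invariant chain, was at 1910 and 727 CPM, against 5202 and 4542 in the other macrophages. H2-Ab1 was at 700 and 325, against 2170 and 2835, and in empty droplets at 832 and 1173. Of the 6 genes 4 in vehicle and 5 in LC427 were below their level in empty droplets, so what part of these UMIs was free RNA was not tested. The UMIs were unevenly spread, and for H2-Ab1 26.1% of the vehicle and 54.8% of the LC427 UMIs were in 3 cells. After thinning to equal depth, H2-Ab1 had a UMI in 27.1% of the vehicle and 25.8% of the LC427 cells, so this share hardly differed. As the mean of each cell's share, the median of the list was -0.29.

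Interferon-response genes were lower in these cells for some members and higher for others. Of 12 type I genes 6 were lower and 2 higher, with a median of -0.52, against 0.29 in the other macrophages. Ifi27l2a was at 687 and 334 CPM and Isg15, a ubiquitin-like modifier, at 131 and 53.5, while Ifi207 and Slfn2 were higher, Slfn2 at 142 and 294. Of 13 genes of the interferon gamma response 2 were lower and none higher, with a median of -0.20, against 0.16. Of these lists 9 of 12 type I and 11 of 13 interferon gamma genes were below their level in empty droplets in LC427, and 3 and 9 in vehicle. Cd274, the gene of PD-L1, had 74 and 6 UMIs. Cxcl9, which attracts T cells through Cxcr3, was at 442 and 352.

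Genes of lipid handling and lysosomes showed smaller medians. Apoe, a lipid carrier, was at 4843 and 3210 CPM, 2.30 and 2.68 times its level in the other macrophages. Of 16 lipid-associated macrophage genes 3 were lower and 1 higher, with a median of -0.25, against -0.45. Of 27 lysosomal genes 4 were lower and none higher, with a median of -0.25. Without the 6 barcodes of other lineages the ratio of Apoe went from 0.663 to 0.774. That of the cathepsin gene Ctsb went from 0.693 to 0.799 and that of the lysosomal gene Psap from 0.862 to 1.00. Of 7 iron and haem genes 4 were lower and 1 higher, with a median of -0.77, and with Fth1 and Ftl1, the ferritin chains, at 11360 and 5039 in vehicle and at 6670 and 3380 in LC427. Ferritin has near-identical copies in the genome, and the other macrophages had a median of -0.65 for this list.

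The other lists were smaller or mixed. Of 11 proliferation genes 4 were higher and 1 lower, with a median of 0.53, against -0.13, and Top2a, a topoisomerase of dividing cells, had 52 UMIs in vehicle and 30 in LC427, 36.7% of the latter in 1 cell. Of these 11 genes 10 in vehicle and 9 in LC427 were below empty droplets. Of 10 blood monocyte genes 1 was higher and 2 lower, with a median of -0.09. The higher one, S100a6, a calcium-binding protein, was at 2610 and 4896, with 33.7% of its LC427 UMIs in 1 cell. Tgfbi, a matrix protein, was at 552 and 936, a ratio of 1.70 (1.44 to 2.00), and at 1263 and 2001 in the other macrophages. Of 30 macrophage transcription factors 5 were lower and 3 higher, with a median of -0.14. The medians were -0.40 for 15 inflammatory genes, -0.39 for 17 of glycolysis and hypoxia, -0.45 for 10 growth factors and cytokines of repair, -0.33 for 6 of arginine and polyamines, -0.25 for 12 checkpoint ligands and receptors, and 0.08 for 11 of the matrix.

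**Figure D5:**
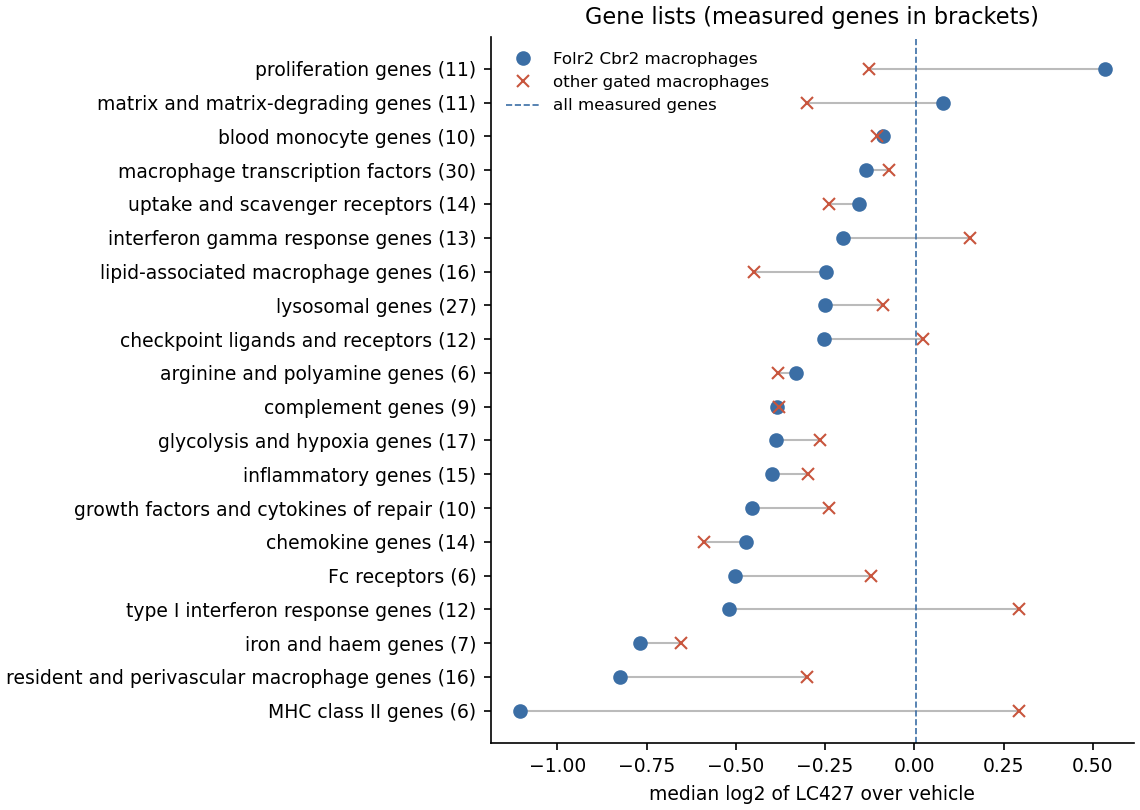
Median log2 of LC427 over vehicle (x axis) for each gene list, with the number of its genes measured in brackets, in Folr2 Cbr2 macrophages (circles) and in the other gated macrophages (crosses). The dashed line is the median of all measured genes in Folr2 Cbr2 macrophages, 0.01; MHC class II and type I interferon genes lie left of it in these cells, at -1.10 and -0.52, and right of it in the other macrophages.

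Within the group, the cells with more of the 5 genes were also deeper, with medians of 1904, 2810.5 and 5352 UMIs in vehicle for 2, 3 and at least 4 genes. Ccl8 was at 6106, 8824 and 10789 CPM in these classes in vehicle, and at 2102, 346 and 2480 in LC427, which has 18, 27 and 17 cells. Mrc1 was level across them in vehicle, at 1201, 1189 and 1261. Among the vehicle cells the 25 without a Folr2 UMI had Ccl8 at 1873 CPM and the 178 with one at 10592, whereas in LC427 the values were 1257 and 1341. H2-Ab1 was higher in cells without a Cbr2 UMI than in those with one, at 1818 against 527 in vehicle and at 1507 against 135 in LC427. These classes were chosen after the values were seen and rest on 35 and 14 cells without Cbr2.

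For Ccl8, cells just outside the rule lay between the group and all other gated macrophages, which include them. With every cell thinned to 1000 UMIs, Ccl8 had a UMI in 74.4% of the Folr2 Cbr2 macrophages, in 58.5% of the 699 cells level with or behind another set, and in 29.8% of all other gated macrophages in vehicle. In LC427 the shares were 41.9%, 30.0% and 8.29%. In barcodes with Cd3e or Ncr1 the share was 8.27% in vehicle and 3.26% in LC427. Those barcodes can also hold macrophage RNA, and at this depth Lyz2 had a UMI in 20.6% and 33.3% of them. Unthinned, the shares of Ccl8 in Folr2 Cbr2 macrophages were 87.2% and 56.5%. For Ccl12 the cells just outside did not lie between, with thinned shares of 48.8% in Folr2 Cbr2 macrophages and 49.2% just outside in vehicle, and of 54.8% and 56.0% in LC427.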

How the data were processed

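For each library the deposited file holds raw UMI counts of 32285 genes in every barcode, empty droplets included. The submitters' processing notes name GRCm38 (mm10), Seurat 3 and Cell Ranger 3.0.1, but per the file headers the counts come from Cell Ranger 4, and which version made them is not settled. The authors' deposited cluster tables hold a signal, the mean count per cell of a cluster scaled to the same total in each cluster, and are used only where named.

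From the counts, barcodes were filtered, gated and assigned as given in the report (Python 3.11.15, scipy 1.17.1). UMIs were summed over the cells of a library, rows with the same symbol added, and levels given as CPM of that sum. A gene was measured with at least 50 UMIs over both libraries' cells. Ratios of levels have exact conditional binomial intervals at 95%, and shares have exact Clopper-Pearson intervals. Ratios of shares have normal approximations on the log scale. A count of 0 was set to 3 for a ratio of levels. With 1 library a group no test was made. Ratios and intervals were tested on simulated sums with counting error only. Those simulations did not cover genes whose UMIs were concentrated in few cells. Named genes were the 12 each way with the interval bound farthest past no change (at least 50 CPM in 1 library, at least 1.5-fold, not below empty droplets, without mitochondrial, ribosomal, predicted or rule genes), the 12 leading and 6 lowest against other macrophages (at least 100 CPM in both libraries), the 5 rule genes, Ccl8 and markers, and from each list the most abundant and the most different genes. Other genes named in a list were picked after their values were seen. Members and lists were chosen with earlier results of these data known.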

Additional observations from a re-analysis of the deposited data

Results flagged for a closer look

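MHC class II genes had a median log2 ratio of LC427 over vehicle of -1.10 in Folr2 Cbr2 macrophages and 0.29 in other gated macrophages. These medians point in opposite directions, as did those of type I interferon response genes, with -0.52 and 0.29. Other lists also had medians of opposite sign. These were proliferation genes (0.53 and -0.13), interferon gamma response genes (-0.20 and 0.16), checkpoint ligands and receptors (-0.25 and 0.02) and matrix genes (0.08 and -0.30). None of these differences was tested, since each group has 1 library. The MHC class II median moved to -0.84 without the 6 barcodes of other lineages and to -0.29 as a mean of per-cell shares.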

How the results depend on the processing

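Under the alternatives tried, the ratio of shares stayed between 0.211 and 0.333 and below 1, with the last of these for every gated macrophage holding 2 of the 5 genes. The count of genes past 1.5-fold moved with the minimum of UMIs a gene needed, which changes how many genes are counted: with at least 20 UMIs it was 1050 higher and 906 lower, with at least 200 UMIs 28 and 85, and with the rule applied after thinning 166 and 252. In all gated macrophages with 2 of the genes 753 genes were higher, over 902 and 362 cells, so that more genes reach the minimum of UMIs. Against other macrophages 53 genes were at least 2-fold higher after thinning. How many genes were measured under each of these settings is not given here. The counts can therefore not be set against the 311, 380 and 83 of 2795 genes in the main results.

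The MHC class II median was -2.52 with at least 2000 UMIs a cell, -2.17 with at least 3 of the 5 genes, -0.29 as a mean of per-cell shares and -0.40 in all gated macrophages with 2 of the genes. The chemokine median was -0.02 after thinning. With cells holding another lineage's UMI left out, the resident median was -0.11 and the complement median -0.21. The complement median was -0.04 as a mean of per-cell shares, -0.22 without the 6 barcodes and -0.21 in all gated macrophages with 2 of the genes.

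Genes carried by single barcodes turned. Col3a1 had a log2 ratio of -3.08 with at least 3 of the 5 genes, of -2.57 without cells holding another lineage's UMI and of -1.11 in all gated macrophages with 2 of the genes. Without the highest Scrublet scores Cma1, Mcpt4 and Tpsb2 were at -1.31, -0.63 and -1.01. For these genes the 1 LC427 barcode that held their UMIs was then gone. The values are bounds from the count of 3 set for 0, not measured reversals. After thinning Nupr1 and Sparc were at -0.59 and -0.25, and in all gated macrophages with 2 of the genes at -0.04 and -0.75. Leaving out the 6 barcodes or the largest barcode, and taking all gated macrophages with 2 of the genes, were chosen after seeing the data. No paired analysis was possible because each group has 1 library. With 224284 UMIs summed in LC427, genes of few UMIs have wide intervals, and folds of genes under 50 UMIs were not read.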
